A study of Mus musculus with 8 samples.

Results

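The distal stretch of mouse chromosome 4 from 110 to under 130 Mb (mm9 build) was examined with all array probes that start inside it, other than those of Hdac1, Rbbp4, Lck and Khdrbs1. These were 709 of the 55681 non-control probes of the array, under 404 gene names. The stretch had been picked because its probes differed between the genotypes in these same arrays, so the genotype differences inside it are given as a description and support nothing. The arrays measured RNA of the prefrontal cortex of 4 male mice labelled α-Gal A(-/0), a model of the lysosomal storage disorder Fabry disease with a null mutation of α-galactosidase A on a C57BL/6 background, and of 4 male wildtype C57BL/6J mice, all aged 20 to 24 weeks, with 1 array per mouse. Per the study's methods, the mice of these arrays came from separate inbred colonies. On the arrays, the null allele and any other difference between the colonies thus cannot be told apart. For quantitative PCR the study used other mice, with the α-Gal A(-/0) line backcrossed to C57BL/6J because of such colony effects. It reported S100pbp and Hdac1 as lower in those mice. Tissue was dissected and flash-frozen, and in such bulk tissue fewer cells of a type and less RNA per cell cannot be told apart either.

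Chromosome 4 is an autosome, whereas Gla, the gene of α-galactosidase A, lies on the X chromosome. The block holds genes of many unrelated roles, among them subunits of the transcription machinery, actin regulators, collagen chains, ion channels and the Skint and Cyp4 gene families. Each gene is read by 1 or a few probes of 60 bases, and different probes of a gene can lie in different exons or different ends of its transcripts, so that a probe reports only the transcripts that carry its target.

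The probe of Gla had log2 signals of 17.12, 17.18, 17.17 and 17.12 in mice labelled α-Gal A(-/0) and of 17.01, 17.17, 17.06 and 17.12 in wildtype mice. The groups overlapped, and the sources used here do not place the mutation relative to this probe, so it does not check the labels. The groups are named by their labels throughout. Of the α-Gal A(-/0) arrays, 1 (replicate 2) had 29934 probes well above background, and the other 7 arrays had 35206 to 38227. Markers of cortical neurons, astrocytes, oligodendrocytes, microglia and endothelium were well above background on all 8 arrays, and those of choroid plexus (Ttr, on 0 arrays) and liver (Alb, on 1 array) were not. The mean log2 signal of the 3 striatum markers ran from 9.73 to 11.76 in mice labelled α-Gal A(-/0) and from 9.41 to 11.09 in wildtype mice, that of the 2 olfactory bulb markers from 9.98 to 11.15 and from 9.0 to 10.4, and that of the 2 microglia markers from 13.09 to 13.21 and from 13.44 to 13.62. Of the olfactory bulb markers, Cdhr1 had mean log2 signals of 11.65 in mice labelled α-Gal A(-/0) and 9.92 in wildtype mice. Doc2g had 9.47 and 9.39, so the difference in the mean of both lay almost all in Cdhr1. The part of these shifts in the values of the block was not tested.

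The probes on which the map turns are shown by a stretch of 30 of their 60 bases, 5′ to 3′ as the array files list them, because the probes of 1 gene gave different results and a value belongs to its target rather than to the gene. For all but the pair of Zbtb8os, the middle 30 bases are given. The Zbtb8os probes overlap, and the 15 bases that both hold are in capitals. The listed coordinates of Akirin1 probe 3 cover only part of its 60 bases, and its order among the Akirin1 probes is that in the transcript.
Hyi, chr4:118035290-118035349, plus strand: agtgtccggagtcccctcctctgaattaaa
Med8 probe 1, chr4:118087655-118087714, plus strand: gtatgcaattctgggtcttgaataaatgat
Med8 probe 2, chr4:118088226-118088285, plus strand: ctgcttttgtagagttgacgaacagtggag
D4Ertd617e, chr4:118304405-118304464, plus strand: catctacagcagatgtcctcaagtgtgcca
Cap1, chr4:122536484-122536543, minus strand: catcagaatcttgcacagcattgcaaaatc
Akirin1 probe 1, chr4:123420702-123420761, minus strand: cagtcaaagcgaagcctgtacttcagaaac
Akirin1 probe 2, chr4:123413978-123414037, minus strand: tatcacatttcagctccaactttgcatcct
Akirin1 probe 3, chr4:123412425-123412443, minus strand: caggaccacattttacaaaatgccttttcc
S100pbp, chr4:128854429-128854488, minus strand: tttctaactttaaaggtctagaatgctaat
Zbtb8os probe 1, chr4:129024120-129024179, plus strand: aaagactcgtgaagaGCTGATTTGTTTTCT
Zbtb8os probe 2, chr4:129024165-129024224, plus strand: GCTGATTTGTTTTCTtccgtttgagaggat
Iqcc probe 1, chr4:129295775-129295834, minus strand: gcaattgtacaagagattgagggtgacctc
Iqcc probe 2, chr4:129292862-129292921, minus strand: taccccctcctcatagaatattaaataaag
Iqcc probe 3, chr4:129292625-129292684, minus strand: gatcaaggaaaaccattcatcctaggccag
Txlna probe 1, chr4:129316544-129316603, minus strand: cggcgagaaggagacctctaagggagagcc
Txlna probe 2, chr4:129303328-129303387, minus strand: ggacttgctattgatgaattttacattaaa

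Among the 709 probes, 485 of 302 gene names passed the filter on signal (a signal well above background in every mouse of 1 or both genotypes, and no uneven spot) and were tested. Of the 224 others, 149 were well above background on no array. In the fit over all 34326 tested probes of the array, 28 probes of the block under 19 gene names were called, that is, had an adjusted p under 0.05, 16 of them higher and 12 lower in mice labelled α-Gal A(-/0). This was 5.77% of the tested probes of the block, beside 0.883% over all tested probes (0.306% higher and 0.577% lower), in the contrast by which the block had been chosen. At each of the 28 called probes the 4 values of one genotype lay apart from those of the other, as they did at 82 of the 485 tested probes of the block (16.9%) and at 7.95% of all tested probes. Probes well above background in every mouse of one genotype and in 0 of the other numbered 3 in the block (0.619%; Med8 probe 2, Tssk3 and a dim probe at 116.80 Mb), beside 0.186% of all tested probes. Tssk3 was dim too and its genotypes overlapped, with 4.27, 1.98, 4.05 and 3.98 in mice labelled α-Gal A(-/0) and 4.76, 4.18, 4.26 and 4.75 in wildtype mice. It was not called. The count of 28 was 16 without wildtype replicate 1, 18 without wildtype replicate 3 and 18 without wildtype replicate 4, and 16 in a fit that blocks on slide row. Within slide row 1 (1 α-Gal A(-/0) array, 3 wildtype arrays) and slide row 2 (3 and 1), the log2 difference was -1.07 and -1.28 for the called probe of S100pbp and 1.02 and 1.04 for probe 1 of Akirin1, whose sign in each row is fixed by values that do not overlap.

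The called probes ran from 118.04 to 129.78 Mb, over 11.74 Mb. Proximal of this run, from 110 Mb on, 126 probes were tested and 0 called by limma, with 4 past a looser criterion that put the study's thresholds (unadjusted p up to 0.01 and a change of 1.2-fold or more) on limma p-values. Over the whole block 60 of 485 tested probes passed it, beside 3.46% of all tested probes, and with p-values of the methods' t-test 42 passed (8.66%), beside 1.82% of all tested probes. Between the first and the last call, 346 were tested and 28 called. Distal of the last call, 13 were tested and 0 called, with 0 past that unadjusted criterion. The median absolute log2 fold change was 0.116 in the first of these stretches, 0.135 in the second and 0.069 in the third, beside 0.094 over all tested probes. Calls did not fill the 20 bins of 1 Mb, and 10 of them held a call, 4 with calls in both directions. A bin without a call need not be without a difference, since some had few tested probes. Only 1 probe each was tested in the bins from 110, 113 and 121 Mb, and 3 each in those from 112 and 127 Mb. At the share of 0.883% over all tested probes, few calls would fall among 126 or 13 probes.

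**Figure D1:**
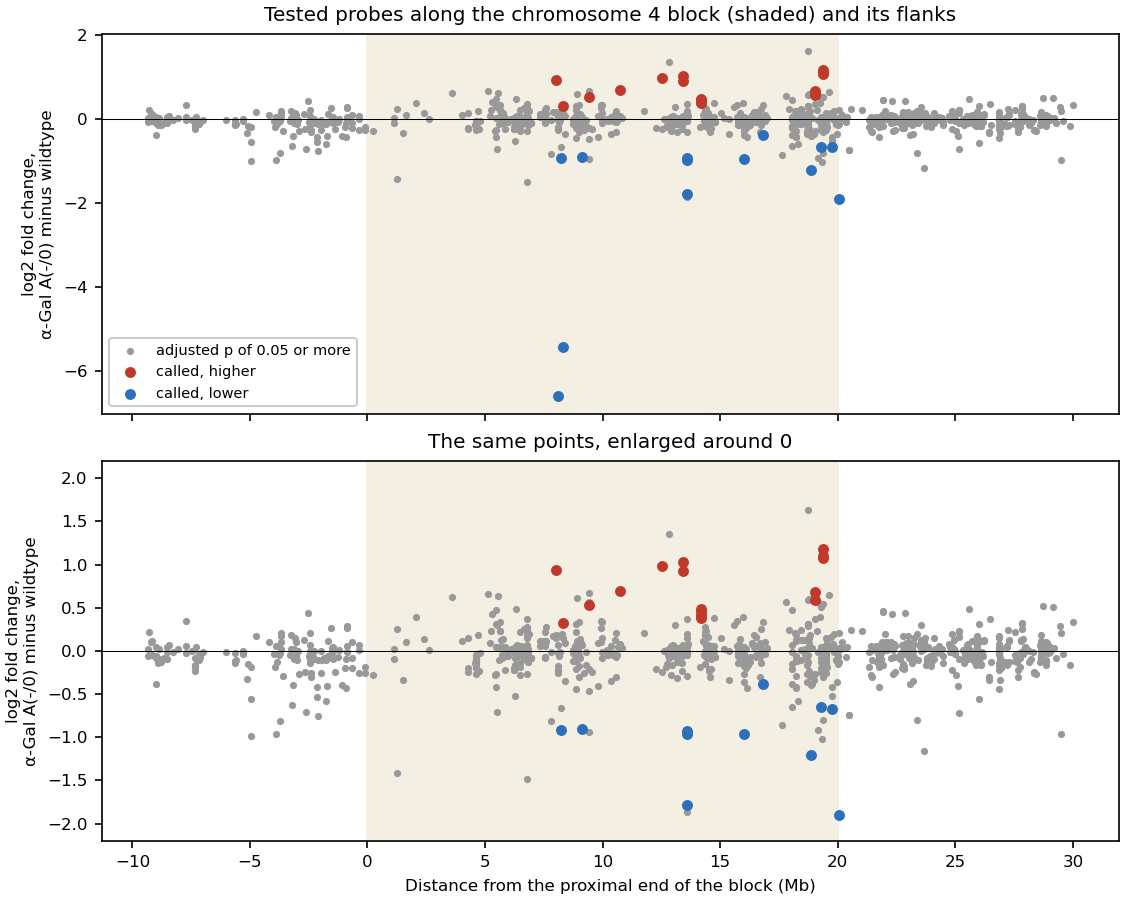
Log2 fold change (α-Gal A(-/0) minus wildtype) of each tested probe, on the vertical axis, against its distance in Mb from the proximal end of the block, with the block shaded, flanks of 10 Mb on either side, grey points for probes not called and red and blue points for called probes that were higher and lower. The upper panel shows all values, and the lower one enlarges the points near 0 and leaves out Med8 probe 2 and D4Ertd617e. Called probes start 8.04 Mb into the block with Hyi, and 1 call lies just past its distal end.

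The proximal edge lay between Ptprf and Hyi. Hyi, a hydroxypyruvate isomerase, had log2 signals of 12.32, 12.39, 12.31 and 12.47 in mice labelled α-Gal A(-/0) and of 11.44, 11.36, 11.39 and 11.55 in wildtype mice (log2 fold change 0.94, standard error (SE) 0.065). Every α-Gal A(-/0) value was above every wildtype value. The nearest tested gene outward was Ptprf, a receptor tyrosine phosphatase at 117.88 Mb, with a log2 fold change of 0.17 (SE 0.061), not called. Behind it, Kdm4a, a histone demethylase, had log2 fold changes of -0.02 and, at a dim probe above background on 3 of 4 α-Gal A(-/0) arrays, of -0.82 (SE 0.477), neither called.

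Within the limit of 130 Mb, the last call was in Col16a1 and the nearest tested gene beyond it was Pef1. The called probe of Col16a1, which encodes a collagen chain, was lower, with a log2 fold change of -0.67 (SE 0.077) and signals of 9.17, 9.37, 9.05 and 9.21 in mice labelled α-Gal A(-/0) and 9.88, 9.90, 9.78 and 9.91 in wildtype mice, without overlap. The other tested probes of the gene had -0.42 and -0.53 and were not called, and another, not tested, was well above background on 0 arrays. Pef1, a calcium-binding protein at 129.81 Mb, had log2 fold changes of 0.08 and 0.07, and Hcrtr1, the orexin receptor 1, of 0.02 and 0.06, none of them called.

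The flanks held few calls. From 100 to under 110 Mb, 136 probes were tested and 0 called by limma. Of these, 9 (6.62%) passed the unadjusted criterion, all of them lower, beside 3.46% of all tested probes. This flank was thus not without differences by the looser criterion. The nearest call in the proximal direction lay at 42.47 Mb. From 130 to under 140 Mb, 1 of 317 tested probes was called, a probe of a non-coding transcript at 130.05 Mb with a log2 fold change of -1.90 (SE 0.220). This probe sits just outside the limit of 130 Mb that bounds the block, and 0.27 Mb beyond the last call inside it. Where the run ends thus depends on that limit and on this 1 probe. From 130 to 140 Mb there were 0 calls where all 8 arrays had to be well above background. There were also 0 with the methods' t-test and 0 in a fit that blocks on replicate number. Nearby probes of Snrnp40 had log2 fold changes of -0.12 and 0.01, and minus-strand probes of the same interval 0.03 and 0.21, none called. With an intensity trend and robust variances, the first called probe moved to 116.80 Mb, to a probe of an unnamed transcript with a log2 fold change of -1.49 that was well above background on 0 α-Gal A(-/0) arrays and all 4 wildtype arrays, and it was also the first call without α-Gal A(-/0) replicate 3.

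Inside the run, 4 stretches of over 1 Mb held no called probe. From Col9a2 at 120.73 Mb to Cap1 at 122.54 Mb only 5 probes were tested. The other 3 held more tested probes, with 26 between 119.41 and 120.73 Mb, 56 between 124.20 and 126.00 Mb and 55 between Zmym6 at 126.80 Mb and S100pbp at 128.85 Mb. Those 55 were spread unevenly, with only 3 tested probes from 127 to 128 Mb. In the stretch from 124.20 to 126.00 Mb the median absolute log2 fold change was 0.077, and in that before S100pbp it was 0.169. Putting Hdac1, Rbbp4, Lck and Khdrbs1 back raised the count of calls from 28 to 34 and filled none of these stretches.

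**Figure D2:**
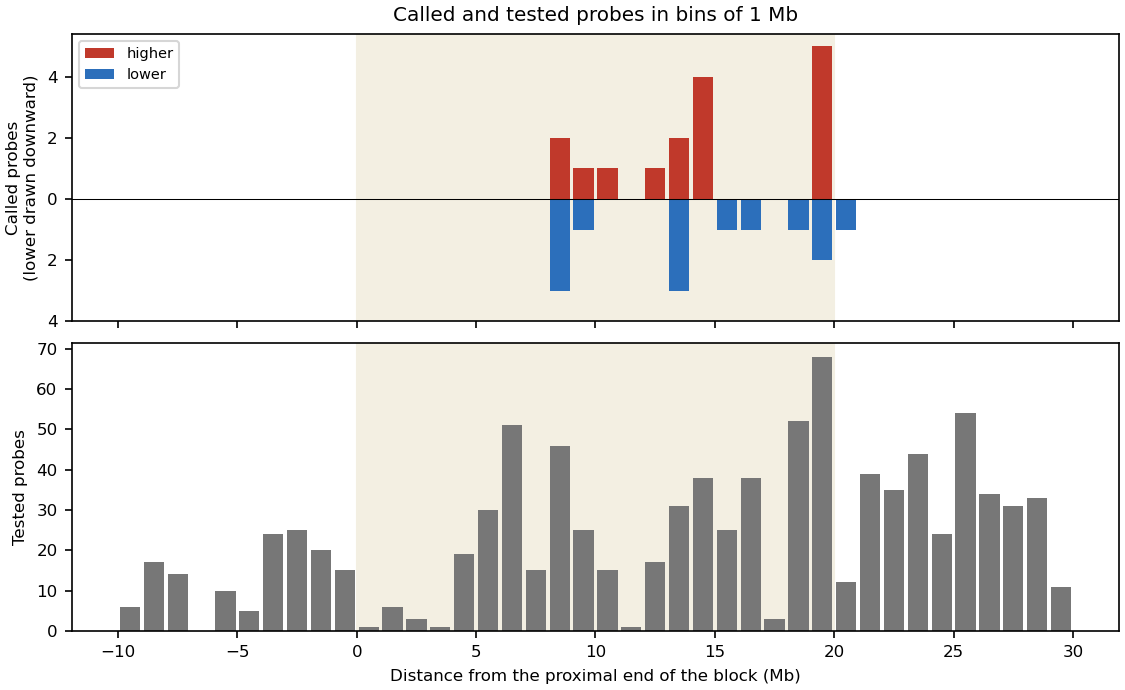
Number of called probes, higher drawn upward and lower drawn downward (upper panel), and of tested probes (lower panel), in bins of 1 Mb against the distance in Mb from the proximal end of the block (shaded). The first 8 bins of the block hold 0 calls, and the last, with the most tested probes (68), holds 5 higher and 2 lower calls.

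The 2 largest differences of the block lay 0.22 Mb apart, near its proximal edge. Med8 encodes a subunit of Mediator, the complex that links transcription factors to RNA polymerase II. Its probe 2 had log2 signals of 4.02, 2.09, 2.04 and 2.03 in mice labelled α-Gal A(-/0) and of 9.16, 9.06, 9.10 and 9.27 in wildtype mice. It was not well above background on any of the 4 α-Gal A(-/0) arrays, so only an approximate bound can be given. For it, each dim value was raised to the lowest signal well above background on its array. On this scale the wildtype level was 25.2-fold higher. Such a floor is not a strict limit, since signals above it were not always well above background. The size depends on how background is treated, and with normexp background correction and an offset of 50 the log2 fold change was -3.19. Probe 1 of Med8, 571 bases nearer to the 5′ end of the same transcript, read 12.41, 12.39, 12.39 and 12.23 in mice labelled α-Gal A(-/0) and 12.68, 12.63, 12.52 and 12.62 in wildtype mice (log2 fold change -0.26, SE 0.064). This probe was not called, although its values did not overlap either. Med8 was thus called at 1 of its 2 targets.

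D4Ertd617e, listed as a non-coding RNA, had log2 signals of 3.83, 3.76, 4.42 and 2.59 in mice labelled α-Gal A(-/0) and of 9.07, 8.96, 9.04 and 9.24 in wildtype mice. It was well above background on 1 of 4 α-Gal A(-/0) arrays and on all wildtype arrays. The wildtype level is thus given by the same approximate bound, 22.6-fold higher. With normexp its log2 fold change was -2.93. Its neighbour Ebna1bp2, a nucleolar protein of ribosome assembly, was higher at 1 of 3 probes, with 12.58, 12.50, 12.53 and 12.48 against 12.22, 12.21, 12.20 and 12.18 in wildtype mice (log2 fold change 0.32, SE 0.049). Its other probes had 0.20 and 0.14, and the called one lost its call in 11 of 17 other settings, slide row as a block among them (limma adjusted p = 0.081). Between Med8 and Ebna1bp2 lies Wdr65, which encodes a WD-repeat protein, with -0.91 (SE 0.159), a call lost in 11 of 17 other settings, slide row as a block among them (limma adjusted p = 0.20). Calls in both directions thus lay next to each other in this stretch.

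**Figure D3:**
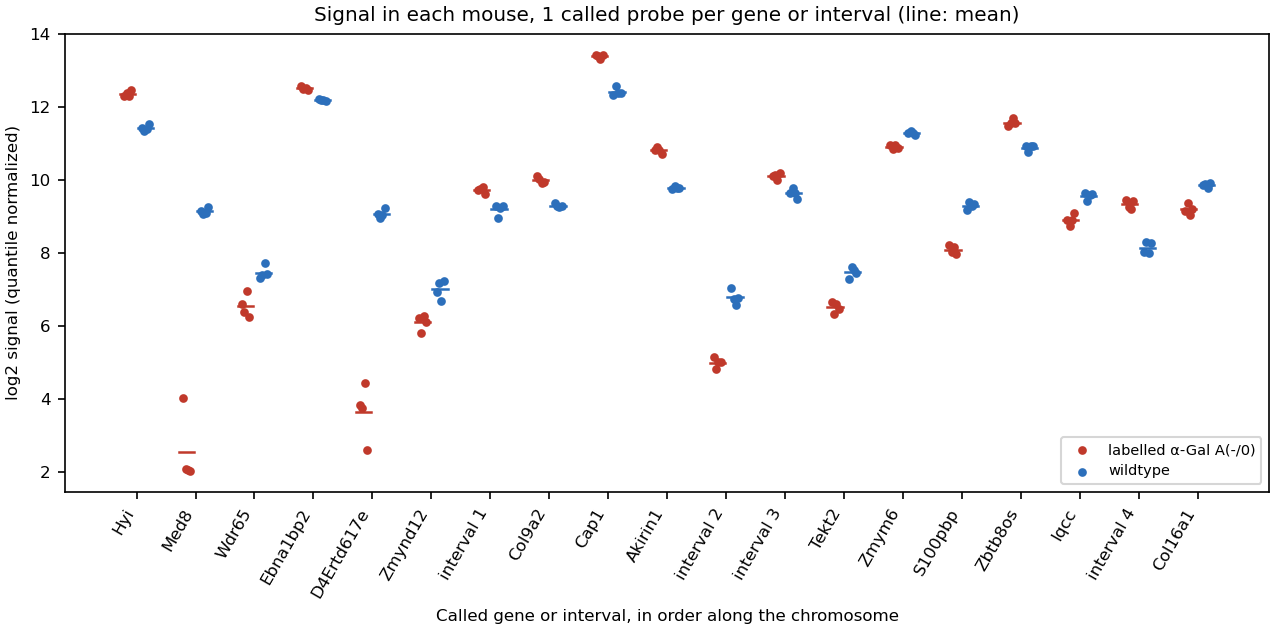
Quantile-normalized log2 signal (vertical axis) of each of the 4 mice labelled α-Gal A(-/0) (red) and the 4 wildtype mice (blue), with the mean as a line, for 1 called probe (that with the largest absolute log2 fold change) of each of the 19 called genes or unnamed intervals, in order along the chromosome. The genotypes do not overlap at any of these probes, and Med8 and D4Ertd617e stand apart from the rest by the size of the difference.

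Of the named genes that were higher, Cap1 and Akirin1 had the largest differences. Cap1, a regulator of actin filaments, had log2 signals of 13.44, 13.41, 13.33 and 13.45 in mice labelled α-Gal A(-/0) and of 12.34, 12.59, 12.38 and 12.40 in wildtype mice (log2 fold change 0.98, SE 0.069). The groups did not overlap, and the probe is the only tested one of the gene. Ppt1, a lysosomal thioesterase whose probe lies next to that of Cap1, had -0.24 (SE 0.082) and was not called. Akirin1, a nuclear protein, had 10.82, 10.92, 10.84 and 10.71 against 9.76, 9.84, 9.79 and 9.78 at probe 1, a log2 fold change of 1.03 (SE 0.060). Probe 2 had 12.47, 12.62, 12.46 and 12.40 against 11.52, 11.71, 11.56 and 11.48, a log2 fold change of 0.92 (SE 0.074). Probe 3, nearest to the 3′ end, was at 0.07 (SE 0.056), with overlapping values. Akirin1 was thus higher at its first 2 targets and not called at the last.

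Col9a2, a chain of collagen IX, was higher by 0.69 (SE 0.061), with 10.10, 10.02, 9.91 and 9.94 against 9.37, 9.29, 9.27 and 9.28 in wildtype mice. Zbtb8os encodes archease, a factor of transfer RNA splicing. At its probe 1, the signals were 11.49, 11.57, 11.70 and 11.56 against 10.93, 10.77, 10.93 and 10.95, a log2 fold change of 0.69 (SE 0.069), and at probe 2 the log2 fold change was 0.59 (SE 0.090). These probes share 15 bases of target and are not independent readings. Zbtb8os was the only named gene of the block with 2 or more tested probes that was called at all of them, but probe 2 lost its call in 11 of 17 other settings, among them 75th percentile scaling and slide row as a block (limma adjusted p = 0.078 and 0.11).

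Of the named genes that were lower, S100pbp, a nuclear protein that binds S100P, had the largest difference after Med8 and D4Ertd617e. The called probe, designed on a cDNA sequence apart from the reference transcript, had 8.22, 8.04, 8.16 and 7.97 in mice labelled α-Gal A(-/0) and 9.17, 9.39, 9.30 and 9.34 in wildtype mice (log2 fold change -1.20, SE 0.077). The 2 probes on the reference transcript had -0.40 (SE 0.154) and 0.19 (SE 0.134), with overlapping values. Tekt2, a tektin of the microtubules of cilia and flagella, had 6.66, 6.33, 6.60 and 6.47 against 7.29, 7.63, 7.53 and 7.44, a log2 fold change of -0.96 (SE 0.099). Zmynd12, a zinc finger protein, had -0.90 (SE 0.148), and Zmym6, also a zinc finger protein, had -0.39 (SE 0.054). Neither was called with slide row as a block (limma adjusted p = 0.13 and 0.096), and Zmynd12 lost its call in 12 and Zmym6 in 5 of 17 other settings.

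Iqcc, a protein with a calmodulin-binding IQ motif, was split by direction. Probe 2 was called and lower, with 8.90, 8.76, 8.92 and 9.09 against 9.65, 9.41, 9.60 and 9.62 in wildtype mice (log2 fold change -0.65, SE 0.086). Probe 1, near the start of the same transcript, had 8.60, 8.27, 8.64 and 8.80 against 8.08, 8.15, 7.97 and 7.99, a log2 fold change of 0.53 (SE 0.112). Probe 3, designed on another transcript and 177 bases distant from probe 2 between their inner ends, had 8.82, 8.64, 8.83 and 8.94 against 8.26, 8.11, 8.48 and 8.36, a log2 fold change of 0.51 (SE 0.096). At all 3 probes the genotypes did not overlap, but only probe 2 was called, and probes 1 and 3 were called, and higher, with normexp background correction and with an intensity trend and robust variances.

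Txlna, a syntaxin-binding protein of vesicle traffic, was just outside the threshold. Its probe 1 had 6.52, 6.18, 6.84 and 6.06 against 7.12, 7.39, 7.68 and 7.52 in wildtype mice (log2 fold change -1.02, SE 0.186, limma adjusted p = 0.057), without overlap. It was called in 4 of 17 other settings, with normexp (limma adjusted p = 0.022), where all 8 arrays had to measure a probe above background (0.044), with an intensity trend and robust variances (0.011) and without α-Gal A(-/0) replicate 3 (0.028). Probe 2, near the 3′ end of the transcript, had 10.57, 10.40, 10.66 and 10.62 against 10.58, 10.68, 10.69 and 10.66, a log2 fold change of -0.09 (SE 0.069). Wdr65 (limma adjusted p = 0.047) was just inside the threshold. The myokine precursor Fndc5, with a log2 fold change of -0.29 (limma adjusted p = 0.061), was the next outside after Txlna.

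**Figure D4:**
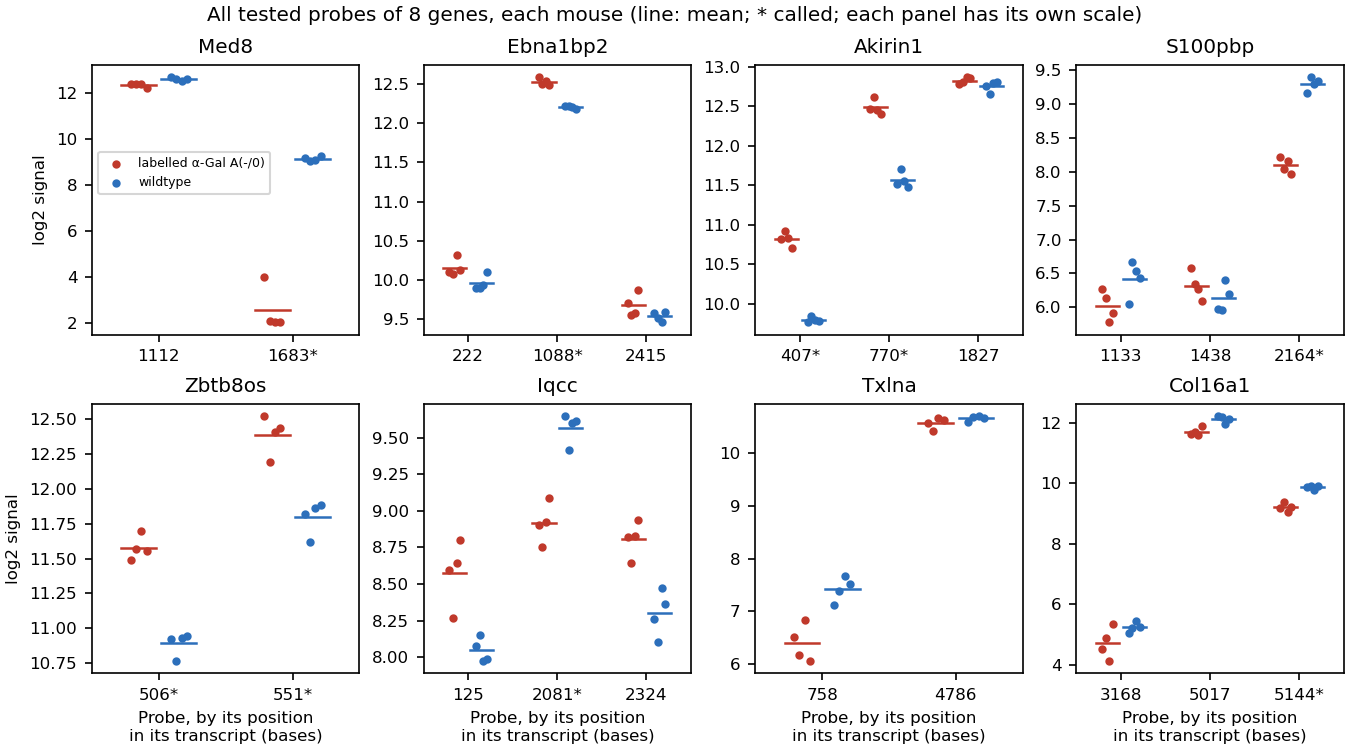
Quantile-normalized log2 signal of each mouse labelled α-Gal A(-/0) (red) and each wildtype mouse (blue) at all tested probes of 8 genes, ordered by the position of the probe in its own transcript in bases (horizontal axis), with the mean as a line, an asterisk at called probes and a separate scale per panel. Med8, Akirin1 and S100pbp differ at some probes and overlap or nearly meet at others, and the probes of Iqcc differ in both directions.

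Over the block, 79 named genes had 2 or more tested probes. Of these, 1 (Zbtb8os) was called at all of them in one direction, 6 (Med8, Ebna1bp2, Akirin1, S100pbp, Iqcc and Col16a1) were called in part, and 72 were not called. Among the 72, the median range between the probes of a gene was 0.12 on the log2 fold change scale. Some of them had wide ranges, with 1.67 for Agbl4, 0.94 for Txlna and 0.80 for Kdm4a. Sorting genes by their calls itself favours wide ranges in those called in part, so the ranges are not compared between these classes. The range between probes was 4.39 for Med8, with its dim probe at its approximate bound. It was 1.39 for S100pbp, 1.18 for Iqcc, 0.96 for Akirin1, 0.25 for Col16a1 and 0.18 for Ebna1bp2. All tested probes of Ebna1bp2 had positive and all of Col16a1 negative log2 fold changes, so their partial calls turn on the threshold. Of the 189 gene names with 1 tested probe, 8 were called. Shares over the whole array are not given for these counts of genes, so nothing particular to the block is read from them.

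Unnamed intervals, which the array lists by coordinates and probes for long non-coding RNA, gave 11 of the 28 calls under 4 names. In the interval chr4:124127144-124334840 on the minus strand, 4 of 5 tested probes were called and higher, by log2 fold changes of 0.38 to 0.48, and the other had 0.38. These 5 probes all start between 14.2002 and 14.2005 Mb from the proximal end of the block. They thus read a small part of this long interval and are not separate readings along it. In the interval chr4:123572090-123581365 on the plus strand, 3 of 4 tested probes were called and lower, with -0.93, -0.97 and -1.79, and the other had -1.86 (SE 0.364). All 4 start between 13.5808 and 13.581 Mb from the proximal end of the block, so they too read a small part of their interval. The 3 called probes were dim, with log2 means of 4.71 to 5.67 in mice labelled α-Gal A(-/0), and were well above background on 2 or 3 of the 4 arrays of that genotype. In the interval chr4:119406384-119407856 on the plus strand, 1 of 3 probes was called, and all 3 had log2 fold changes of 0.53 to 0.56.

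The interval chr4:129376440-129391690 on the minus strand held 3 called probes that were higher by 1.18, 1.08 and 1.10. They lie within 300 bases of each other, and the 2 tested probes next to them on one side had 0.54 and -0.80, not called. Khdrbs1, an RNA-binding protein that is not counted in the block, has a probe inside this interval on the same strand, which was higher by 0.54 (SE 0.064), and a second probe outside it at -0.04. The other genes left out of the block were Hdac1, a histone deacetylase, called and lower at all 3 probes with -0.61, -1.78 and -1.36, the histone-binding Rbbp4, at -1.05 and 0.04, and the kinase Lck, at 0.43. With these genes too, Khdrbs1 and Rbbp4 were called at 1 of 2 probes.

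Grouped by role, most members of the block did not pass the test. Over all tested probes 0.883% were called and 3.46% passed the looser criterion, and beside these shares nothing is read from a list with 0 calls. Of the genes of synapses, channels and neuronal signalling, 0 of 16 tested were called by limma, with 0 of their 27 probes past the unadjusted criterion, and the lowest p belonged to Hpca, the calcium sensor hippocalcin, at 0.61 (SE 0.182) and 0.15. Of the genes of lysosomes, sphingolipids and membrane lipids, which include Ppt1 and the fatty acid elongase Elovl1 (-0.23), 0 of 9 were called, with 0 of 12 probes past the criterion. Of the mitochondrial and redox genes 0 of 10 were called and 2 of 16 probes passed the criterion. Of 6 tested genes of the cell cycle and DNA repair 0 were called, with 0 of 9 probes past the criterion.

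Calls in the lists with a role came from genes already described. Of 21 tested genes of RNA processing and translation 1 was called (Ebna1bp2), with 2 of 40 probes past the looser criterion, and Yars, the tyrosyl transfer RNA synthetase, had -0.39 (SE 0.086) without a call. Of 22 tested genes of transcription and chromatin 2 were called (Med8 and Zmym6, both lower), with 4 of 32 probes past the looser criterion. Of 13 of the cytoskeleton and of trafficking 2 were called (Cap1 higher, Tekt2 lower), with 4 of 17 probes past the looser criterion, among them Marcksl1, an actin-binding substrate of protein kinase C, at 0.55 (SE 0.127) without a call. The median log2 fold change per list, with the brightest probe of each gene, ran from -0.056 (mitochondria and redox) to 0.065 (cell cycle) over these 7 lists, beside -0.025 over all tested probes. Of the 11 Skint genes and of the 11 Cyp4 genes, 4 each had a tested probe, with medians of 0.264 and 0.325, 0 calls by limma and 0 probes past the looser criterion.

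In measures that do not use the genotype contrast, the tested probes of the block were close to those of the array. The median SD within genotypes was 0.144 on the log2 scale for the tested probes of the block and 0.143 for all tested probes, and the median log2 signal was 8.75 and 8.67. The median GC content of the probe sequences was 43.3% in both, and 40.8% at the called probes of the block. The letters AATAAA, a polyadenylation signal, searched on the listed strand only, occurred in 6 of the 28 called probes (21.4%), in 12.6% of the tested probes of the block and in 11.8% of all tested probes.

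Other stretches of the genome had shares of called probes of the same order. On chromosome 9 from 30 to under 50 Mb, 23 of 282 tested probes (8.16%) were called, and on chromosome 17 from 30 to under 40 Mb, 15 of 360 (4.17%). These stretches too are known from the same contrast, and the shares were not tested against that of the block.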

How the data were processed

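Prefrontal cortex RNA of 4 male mice labelled α-Gal A(-/0) and 4 wildtype mice was hybridized to one-color Agilent 8x60K arrays on 1 slide. The authors extracted spot intensity with Agilent Feature Extraction 10.7.3.1 (per the labels) and quantile normalized it. The deposited background-corrected intensity was used here, and the deposited value table was not used. Control spots and probes with an uneven spot were left out, spots of a probe were averaged, log2 values were quantile normalized, and probes whose signal exceeded background clearly in every mouse of 1 or both genotypes were tested with limma 3.58.1 (R 4.3.3) and Benjamini-Hochberg adjustment over 34326 probes. Calls had an adjusted p under 0.05. A looser criterion put the study's thresholds (unadjusted p up to 0.01 and a change of 1.2-fold or more) on limma p-values, while the study took p from its own test. Probe positions are those of the files (mm9). In simulated data the fit was checked for recovery of known changes. The number of arrays limits the precision. The p-values set the difference between genotypes against the spread between mice of the same genotype, and do not cover the spread between colonies. The members, gene lists and named genes (those in the definition of the block, called probes without overlap, genes at its edges, genes called in part, list members of lowest p) were chosen with earlier results of these data known.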

Additional observations from a re-analysis of the deposited data

Results flagged for a closer look

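Of 80 sets of 4 values of one genotype, at 40 probes of the block, 5 had 1 mouse far from the other 3 (the gap to the nearest value over the whole range was above Dixon's critical value for 4 samples), where chance flags about 1 set in 20. At Med8 probe 2, α-Gal A(-/0) replicate 1 had a log2 signal of 4.02 and the others 2.03 to 2.09, all at background. At Med8 probe 1, α-Gal A(-/0) replicate 4 had 12.23 and the others 12.39 to 12.41. Wildtype replicate 2 was lowest at 2 probes, with 10.77 at Zbtb8os probe 1 (the others 10.93 to 10.95) and 8.95 at the called probe of the interval chr4:119406384-119407856 (the others 9.25 to 9.30). At 1 dim probe of the interval chr4:123572090-123581365, α-Gal A(-/0) replicate 2 had 5.0 and the others 4.59 to 4.62.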

How the results depend on the processing

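Of the 28 called probes of the block, 10 were called in each of the 17 other settings of normalization, filter, test, blocking and left-out arrays that tested them (Hyi, Col9a2, Cap1, both called probes of Akirin1, S100pbp, probe 1 of Zbtb8os, 2 of the interval chr4:123572090-123581365 and 1 of the interval chr4:129376440-129391690), and 0 of the 28 changed sign in any. The count of calls was 12 with the methods' t-test (7 higher, 5 lower, last call at 129.38 Mb, 5 genes or intervals called in part), 17 with the replicate block (9 higher), 16 with slide row as a block (8 higher), 60 past the study's thresholds on limma p-values (30 higher, 30 lower, first call at 111.50 Mb; 42 with p-values of the methods' t-test) and 16 with the brightest probe per gene, and an intensity trend with robust variances gave 20 lower calls and a first call at 116.80 Mb. Leaving out single arrays gave 16 to 25 calls, 8 to 14 of them higher, a first call at 116.80 to 118.04 Mb and 0 to 2 calls from 100 to 110 Mb. The 16 higher calls became 9 without α-Gal A(-/0) replicate 1 or 3 and without wildtype replicate 4 and 8 without wildtype replicate 1 or 3, and calls from 100 to 110 Mb appeared without α-Gal A(-/0) replicate 2 (2) and without wildtype replicate 4 (1). From 100 to 110 Mb there was 1 call with 75th percentile scaling, 3 with normexp, 5 with the intensity trend and 9 past these thresholds. From 130 to 140 Mb there were 0 calls where all 8 arrays had to be well above background, 0 with the methods' t-test, 0 with the replicate block and 5 past these thresholds. The cause of these shifts was not tested. Med8 probe 2 and D4Ertd617e, at background in mice labelled α-Gal A(-/0), had adjusted p = 0.15 and 0.13 with the methods' t-test and were called by limma in all other settings that tested them (over all of these, lowest adjusted p 4.7e-08 and 7.8e-08).

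Replicate numbers of the titles were not taken to pair the mice. Deviations from the genotype mean on same-numbered arrays had correlations of -0.088, 0.139, 0.016 and 0.148, which cannot settle whether the mice were paired. The replicate block is given only for that reason. No probe was saturated on any array. At probes at background the array gives only an approximate bound on the difference.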
